A study of Mus musculus with 12 samples.

Results

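The genes of the integrins LFA1 and VLA4 and of the adhesion molecules they meet on vessel walls were followed in mouse brain after a cerebrovascular injury and after antibody blockade of those integrins. The set holds 10 of the 25749 genes in the deposited tables, found by their exact symbols in all 12 libraries. Its members are Itgal and Itgb2 (the chains of LFA1), Itga4 and Itgb1 (the chains of VLA4), Itgam, Icam1, Icam2, Vcam1, Sele and Selp.

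The 12 libraries came from 12 different male B6 mice, each 13 weeks old, in 3 groups of 4. The groups were uninjured mice, injured mice, and injured mice that received αLFA1/VLA4, which the labels describe as continuous. Brain was sampled on day 20 after injury from mice perfused with saline, as a cube with edges of 3 mm, and total RNA was sequenced in bulk. The labels state neither how the injury was made, nor where the cube lay in uninjured mice, nor whether the other groups received a control antibody, so αLFA1/VLA4 is compared with injury without a stated control injection. Total RNA of a tissue cube mixes vessel wall, brain cells and any leukocytes, and fewer cells of a type cannot be told apart from less RNA per cell.

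Integrins are paired surface receptors, 1 α and 1 β chain each. LFA1 is found on leukocytes and binds ICAM family molecules, of which Icam2 is present on resting endothelium and Icam1 is induced by inflammatory signals. VLA4 binds Vcam1 and some matrix proteins, and its β chain, Itgb1, is shared with many other integrins and made by nearly every cell type. Selectins act before integrins: Sele and Selp, on activated endothelium, slow leukocytes in the blood stream. In brain, Itgb2 and its partner Itgam, which together form Mac1, are also made by resident microglia.

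Promoter sequence is shown for Icam1 and Sele, inducible endothelial genes that stood far apart in read number here. Each line gives the 250 bases before the RefSeq start site on the plus strand of GRCm38.p6, at chr9:21015690-21015939 for Icam1 and chr1:164047984-164048233 for Sele. Capitals mark matches to GGANATTCC, to TTCNNNGAA and to TATAAA, searched on both strands.
Icam1: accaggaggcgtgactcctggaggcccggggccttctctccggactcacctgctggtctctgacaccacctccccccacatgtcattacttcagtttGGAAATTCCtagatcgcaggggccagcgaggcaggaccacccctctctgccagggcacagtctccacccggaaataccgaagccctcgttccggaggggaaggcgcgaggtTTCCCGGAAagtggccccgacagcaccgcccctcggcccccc
Sele: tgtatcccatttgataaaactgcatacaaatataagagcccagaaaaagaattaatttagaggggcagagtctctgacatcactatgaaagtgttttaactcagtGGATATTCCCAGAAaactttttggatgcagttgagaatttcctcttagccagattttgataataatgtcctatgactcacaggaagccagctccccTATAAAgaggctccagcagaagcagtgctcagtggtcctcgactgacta
Icam1 holds GGAAATTCC at bases 98 to 106 and TTCCCGGAA at bases 209 to 217, counted from the left end. Sele holds GGATATTCC at bases 106 to 114, which overlaps TTCCCAGAA at bases 111 to 119, and TATAAA at bases 202 to 207. Motifs of the form GGANATTCC are known from the human counterparts of both genes as NF-kappaB binding sequences. Of 32851 promoter windows of mouse genes, 0.819% held GGANATTCC, 7.02% held TTCNNNGAA and 12.4% held TATAAA. The motifs were picked after these windows had been read, and a match is a description of the letters only. RefSeq windows were at hand for 6 of the 10 genes, and no other promoter is printed.

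Exon reads per library were 15159988 to 15781229 in uninjured, 15507462 to 16121577 in injured and 13330379 to 13917157 in treated mice. Reads across exon junctions were 25.2% to 26.2%, 27.5% to 30.9% and 22.6% to 25.7% of them in the same order. Treated libraries were thus all shallower than the others, with a lower junction share than injured ones. The part of these library traits in the differences between groups was not tested. The first principal component of all tested genes carried 38.3% of the variance and had uninjured mouse 1 and treated mouse 4 at its ends, and values without both are given where they change a call. Of the marker genes of vessel, brain and blood cells, the endothelial list (Cldn5, Cdh5, Pecam1 and others) had no gene at 0 in any group and summed to 316 to 334 TPM in uninjured, 360 to 400 in injured and 355 to 399 in treated mice. Microglial markers summed to 452 to 482, 574 to 594 and 592 to 609 TPM in the same order. Skeletal muscle markers, which mark no brain cell, summed to 14.0 to 19.0, 19.6 to 26.3 and 141 to 177 TPM, and fibroblast markers to 56.1 to 63.1, 74.2 to 89.5 and 215 to 265 TPM.

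Scaled per length and library as TPM, the unit that allows genes to be compared, the members spanned a wide range of abundance in every group. Itgb1 was the most abundant, with a mean of 48.5 TPM in uninjured, 46.2 in injured and 49.2 in treated mice. Vcam1 followed at 16.1, 16.3 and 18.3 TPM, and Itgam at 11.2, 12.1 and 11.2 TPM. Itgb2, the β chain of LFA1, had mean levels of 5.22, 8.72 and 9.91 TPM. Its α chain partner Itgal had 0.447, 0.433 and 0.629 TPM, the lowest of the integrin chains. Between them lay Icam2 (4.39, 6.03 and 5.0 TPM), Icam1 (2.51, 4.48 and 5.04 TPM) and Itga4 (2.82, 2.34 and 2.56 TPM). The selectins were at the bottom, with Sele at 0.0139, 0.0418 and 0.0305 TPM and Selp listed at 0 in all uninjured mice.

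Neighbours in that order were mostly separated by their ranges over mice. In uninjured mice the ranges of Icam2 and Itga4, of Itga4 and Icam1, and of Sele and Selp overlapped. In injured mice those of Itgam and Itgb2 and of Sele and Selp overlapped. In treated mice Itgam overlapped Itgb2, Icam1 overlapped Icam2, and Selp overlapped Sele. The plot of deposited TPM by gene shows this order for each group.

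**Figure D1:**
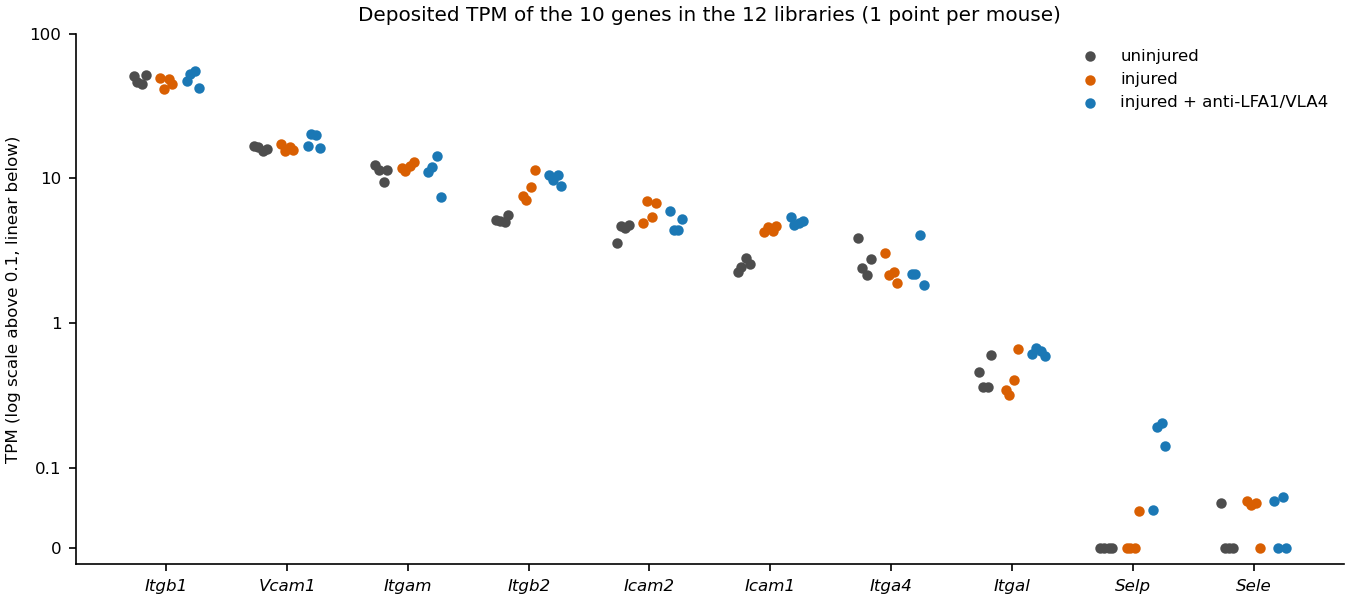
Deposited TPM of the 10 genes in each of the 12 libraries, 1 point per mouse, on an axis that is logarithmic above 0.1 TPM and linear below it. Itgb1 lies highest in all groups, near 48 TPM, while Sele and Selp lie near 0, with Selp above 0 in all 4 treated mice.

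Levels between groups were compared as normalised CPM, exon reads scaled to the size of each library after TMM normalisation but not to gene length, with edgeR's quasi-likelihood test and Benjamini-Hochberg adjustment over 14771 genes. Of the 10 members, 8 had enough reads for the test, and Sele and Selp did not. Injury was accompanied by higher Icam1 and Itgb2 and lower Itgb1. Under αLFA1/VLA4, Icam1 and Itgb2 were higher than in uninjured mice, and Itgal, Itgb2, Itgb1 and Vcam1 were higher than in injured mice. The fall of Itgb1 with injury and the calls against injured mice depended on the processing. Of each, 0 were kept with limma on log2(TPM + 0.5) or with junction reads alone. No member was called lower under αLFA1/VLA4 than in either other group.

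Compared with uninjured mice, injured mice had 3 members called at an adjusted p under 0.05 of the 8 tested, 2 higher and 1 lower. Over all genes tested, 23.0% were called in either direction in that comparison and 11.9% were called higher. The scaling moved this background: with library size alone in place of TMM, 76.0% of the genes called in injured against uninjured mice were higher, against 51.9% with TMM, and in treated against uninjured mice the shares were 86.3% and 66.2%. On log2(TPM + 0.5), tested with limma, higher genes were 93.6% of those called with injury, 87.3% in treated against uninjured and 15.9% in treated against injured mice, where TMM gave 50.5%. On that scale the all-gene median was 0.17 (log2) with injury and -0.14 in treated against injured mice, so TPM levels and marker sums set across groups carry this shift, and ratios within a library do not. Groups did not overlap for 3 members, 2 higher and 1 lower, against 17.4% and 12.9% of all genes. The members' median log2 fold change was -0.10, beside 0.03 over all genes.

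Treated against uninjured mice had 2 members called higher and 0 lower, against 6.30% and 3.22% of all genes, and 4 members lay wholly above the uninjured range, as did 9.01% of all genes, while 0 lay wholly below it, as did 6.56% of all genes. Treated against injured mice had 4 members called higher and 0 lower, against 10.9% and 10.7% of all genes. In that comparison 3 members lay wholly above the injured range, against 10.6% of all genes, and 0 wholly below it, against 11.4%. Median log2 fold changes of the members were 0.18 and 0.29 in these comparisons, beside 0.01 over all genes in each. The 3 comparisons share groups of mice, so their values are set side by side and are not independent of each other.

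**Figure D2:**
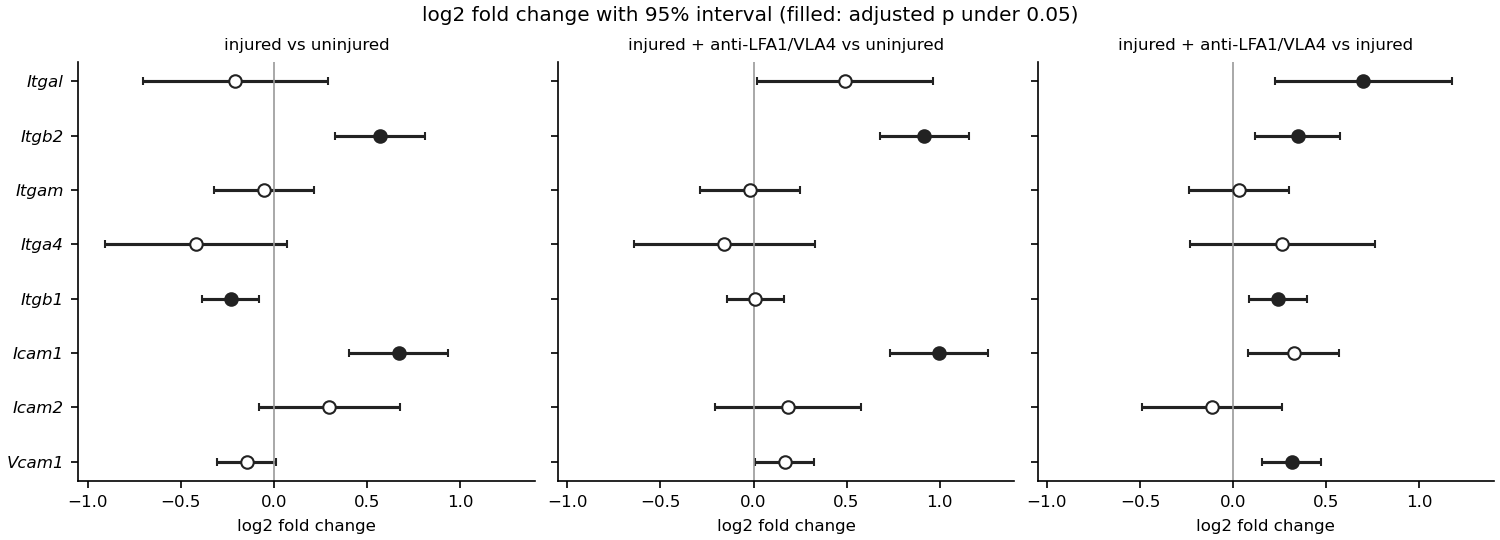
Log2 fold change (x axis) of the 8 tested genes (rows) in the 3 comparisons (panels), with 95% intervals from the edgeR fit; filled points have an adjusted p under 0.05. Itgb2 and Icam1 are filled and to the right in both comparisons with uninjured mice, and Itgal, Itgb2, Itgb1 and Vcam1 are filled in treated against injured mice.

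Itgal (ENSMUSG00000030830, chr7:127296260-127335138 in GRCm38, 40 exons) encodes the α chain particular to LFA1. It read at 1.21, 0.98, 1.01 and 1.54 normalised CPM in uninjured mice, at 0.83, 0.81, 0.96 and 1.48 in injured mice, and at 1.68, 1.78, 1.57 and 1.65 in treated mice. In normalised CPM all 4 treated mice were above every mouse of the other groups, while uninjured and injured mice overlapped, each with replicate 4 highest. In TPM the groups overlapped, since uninjured mouse 4 (0.603) and injured mouse 4 (0.664) lay within the treated range of 0.589 to 0.678. These levels rest on few reads, 71 in the uninjured, 67 in the injured and 92 in the treated group. Itgal was higher in treated than in injured mice by 0.70 on the log2 scale (SE 0.22, edgeR adjusted p = 0.0387), a fold of 1.62 with a 95% interval of 1.17 to 2.26. Against uninjured mice the log2 fold change was 0.49 (SE 0.22) and did not pass (edgeR adjusted p = 0.170). Injured and uninjured mice differed by -0.21 (95% interval -0.70 to 0.29, edgeR adjusted p = 0.545). The call in treated against injured mice was lost without injured mouse 1, 2 or 3 or treated mouse 1, 2 or 4, with edgeR adjusted p between 0.0534 and 0.0967. It was also lost without uninjured mouse 1 and treated mouse 4 together (0.0614) by DESeq2 (0.0608) and by limma on log2(TPM + 0.5) (0.29, adjusted p = 0.133), and held in 14 of 26 alternatives in all.

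Itgb2 (ENSMUSG00000000290, chr10:77530252-77565708, 25 exons) encodes the β chain that LFA1 and Mac1 share. Uninjured mice had 6.52, 6.58, 6.64 and 6.84 normalised CPM, injured mice 8.72, 8.71, 9.82 and 12.2, and treated mice 13.8, 12.2, 12.3 and 11.9. Uninjured mice lay closely together below all others, whereas the highest injured mouse, replicate 4, reached into the treated range. The rise with injury was 1.49-fold (95% interval 1.26 to 1.76), a log2 fold change of 0.57 (SE 0.11, edgeR adjusted p = 0.00603). Treated mice were 1.89-fold above uninjured mice (1.60 to 2.23, edgeR adjusted p = 0.000150). Treated exceeded injured mice by 0.35 on the log2 scale (SE 0.11, edgeR adjusted p = 0.0352). That call was lost without uninjured mouse 2 or 4, injured mouse 1, 2 or 3, or treated mouse 1 or 2 (edgeR adjusted p between 0.0506 and 0.0987), and was 0.48 without injured mouse 4. Limma on log2(TPM + 0.5) gave 0.20 (adjusted p = 0.270), and the call held in 14 of 27 alternatives. With reads across exon junctions alone, which were 48.3% of Itgb2's exon reads, the rise with injury was 0.66 (edgeR adjusted p = 0.0744). In that fit 0.552% of all genes tested were called with injury.

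Microglia make Itgb2, so its level was set against microglial markers within each library. The ratio of Itgb2 TPM to the summed TPM of 12 microglial markers was 0.0109 to 0.0116 in uninjured, 0.0124 to 0.0196 in injured and 0.0146 to 0.0177 in treated mice. Uninjured mice lay below all others in this ratio, and injured and treated mice overlapped. Set against the summed TPM of 8 pan-leukocyte genes, Itgb2 overlapped among the 3 groups, at 0.0277 to 0.0331, 0.0284 to 0.0419 and 0.0300 to 0.0436. That leukocyte sum was itself 155 to 180 TPM in uninjured, 236 to 274 in injured and 240 to 297 in treated mice, and its part in the result was not tested. For Itgal the ratio to it was 0.00201 to 0.00338, 0.00126 to 0.00242 and 0.00198 to 0.00272, also overlapping among all groups.

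The ratio of Itgal to Itgb2 differed among groups, on few Itgal reads, 13 to 25 per library. The β chain also pairs with those of Itgam and Itgax, so the ratio is not a proportion within LFA1. Per length, Itgal stood at 0.0850 ± 0.0172 of Itgb2 in uninjured mice, 0.0486 ± 0.00618 in injured mice and 0.0637 ± 0.00511 in treated mice (SD, n = 4 each). Treated mice, at 0.0582 to 0.0695, lay barely above all injured mice, which reached 0.0578. Both groups lay below every uninjured mouse, the lowest of which stood at 0.0710. These ratios are descriptions, with no test, and counting error was not taken into account.

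Itgam (ENSMUSG00000030786, chr7:128062640-128118491, 40 exons), whose product pairs with the β chain of Itgb2 in Mac1, had 25.3, 24.1, 20.4 and 22.7 normalised CPM in uninjured mice. Injured mice had 21.9, 22.3, 22.3 and 22.6, and treated mice 23.4, 24.4, 27.2 and 16.3. Groups overlapped, and treated mouse 4 was the lowest of all 12. Log2 fold changes were -0.05 (95% interval -0.32 to 0.21) with injury, -0.02 (-0.29 to 0.25) in treated against uninjured mice and 0.03 (-0.23 to 0.30) in treated against injured mice, with edgeR adjusted p of 0.778, 0.929 and 0.875. The gene's reads are uncertain: 220 of its 4107 exon reads, or 5.36%, were listed as unique. The gene Gm49368, annotated on the same strand at chr7:128062683-128128160, covers 68.7% of Itgam's exon bases and was itself given 13 reads in all libraries together. The ratio of Itgb2 to Itgam TPM was 0.418 to 0.529 in uninjured, 0.633 to 0.880 in injured and 0.737 to 1.19 in treated mice, so injured mice lay above all uninjured mice and overlapped treated mice.

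**Figure D3:**
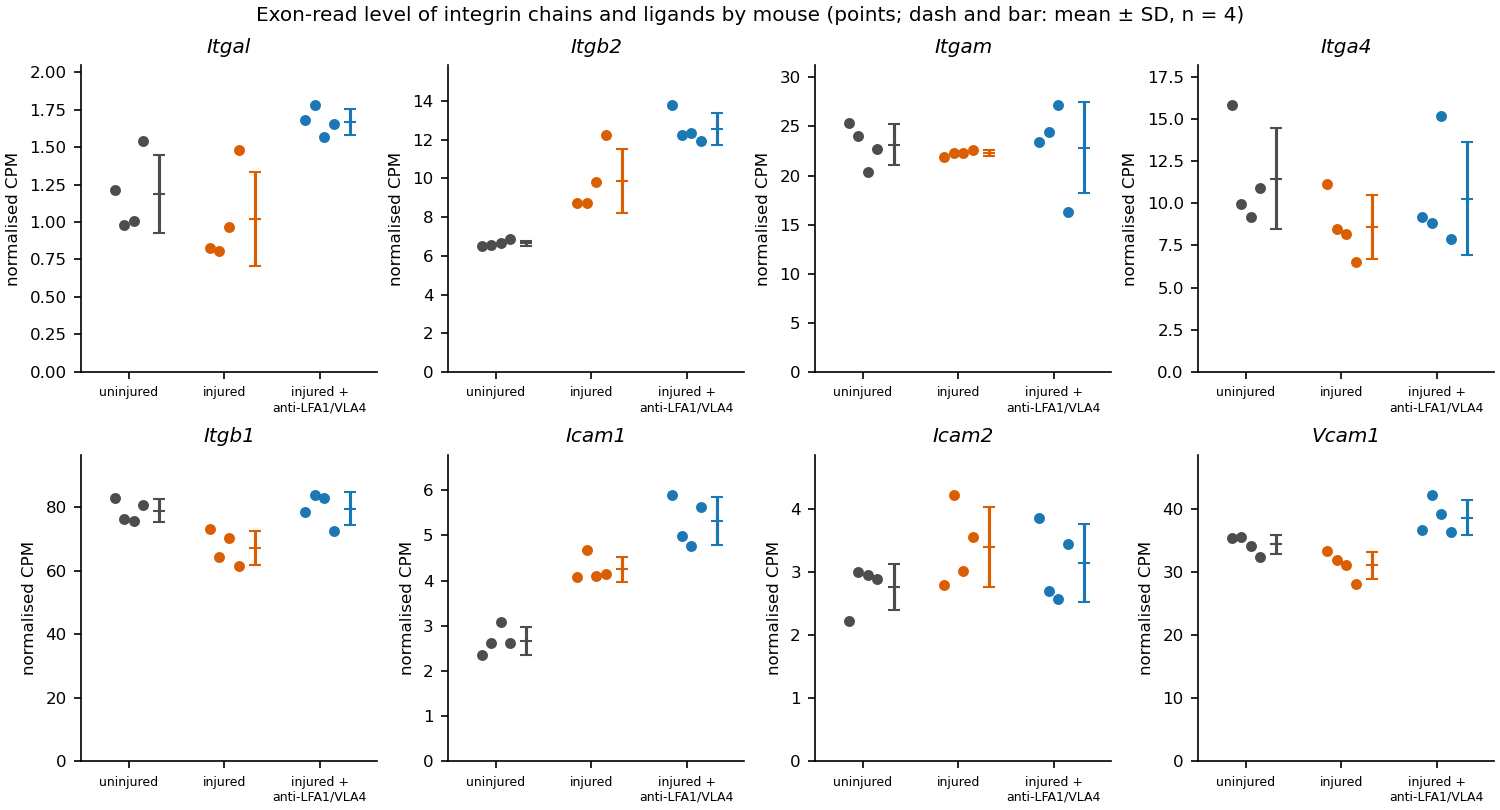
Normalised CPM (y axis) of the 8 tested genes in each mouse, 1 point per mouse, with mean and SD of each group (n = 4) drawn beside the points. Uninjured mice lie below both injured groups for Itgb2 and Icam1, and treated mice lie above both other groups for Itgal, Icam1 and Vcam1.

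Itga4 (ENSMUSG00000027009, chr2:79255426-79333123, 28 exons) encodes the α chain of VLA4. Uninjured mice had 15.8, 9.97, 9.19 and 10.9 normalised CPM, injured mice 11.1, 8.46, 8.19 and 6.51, and treated mice 9.19, 8.82, 15.2 and 7.88. The groups overlapped, with uninjured mouse 1 and treated mouse 3 well above the rest of their groups. No comparison passed: log2 fold changes were -0.42 (95% interval -0.91 to 0.07, edgeR adjusted p = 0.183) with injury, -0.16 (-0.64 to 0.33, 0.666) in treated against uninjured and 0.26 (-0.23 to 0.76, 0.442) in treated against injured mice. Reads across exon junctions were 9.49% of Itga4's exon reads, the lowest share among the tested members. Its last exon bases overlap Cerkl, a gene of the opposite strand that covers 8.04% of its exon bases, and whether strand was used in counting is not given in the sources used here.

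Itgb1 (ENSMUSG00000025809, chr8:128685654-128733200, 21 exons) had 83.0, 76.1, 75.6 and 80.7 normalised CPM in uninjured mice, 73.0, 64.4, 70.2 and 61.3 in injured mice and 78.3, 84.0, 82.8 and 72.5 in treated mice. All injured mice were below all uninjured mice, and treated mice overlapped both groups. Itgb1 fell by 0.23 on the log2 scale with injury (SE 0.07, edgeR adjusted p = 0.0350), a fold of 0.852 (95% interval 0.766 to 0.948). Treated exceeded injured mice by 0.24 (SE 0.07, edgeR adjusted p = 0.0292), and treated and uninjured mice differed by 0.01 (95% interval -0.14 to 0.16, edgeR adjusted p = 0.935). The calls were lost in some alternatives. After a correction of each library for GC content and length, the changes were -0.08 (edgeR adjusted p = 0.221) and 0.11 (0.0796), and on log2(TPM + 0.5) they were -0.07 (limma adjusted p = 0.578) and 0.09 (0.509). With library size alone the fall with injury was -0.15 (edgeR adjusted p = 0.122), while the call in treated against injured mice was kept. The fall with injury was also lost without uninjured mouse 1, 2 or 4, injured mouse 2 or 4, or treated mouse 1 (edgeR adjusted p between 0.05 and 0.102). Treated against injured was lost without injured mouse 2 or 4 or treated mouse 1 or 2 (0.0575 to 0.0837). The calls held in 15 and 17 of 27 alternatives.

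The ratio of the VLA4 chain genes overlapped among groups. Itga4 stood at 0.0485 to 0.0760 of Itgb1 in uninjured, 0.0424 to 0.0609 in injured and 0.0419 to 0.0731 in treated mice, as ratios of TPM.

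Icam1 (ENSMUSG00000037405, chr9:21015985-21028817, 7 exons), the inducible ligand of LFA1 and Mac1 whose promoter is printed above, was called higher in both comparisons with uninjured mice. Uninjured mice had 2.35, 2.61, 3.09 and 2.62 normalised CPM, injured mice 4.08, 4.67, 4.10 and 4.14, and treated mice 5.91, 4.98, 4.78 and 5.63. The 3 groups formed 3 separate ranges, uninjured lowest and treated highest. Icam1 rose 1.59-fold with injury (95% interval 1.32 to 1.91), a log2 fold change of 0.67 (SE 0.12, edgeR adjusted p = 0.00460). Treated mice were 1.99-fold above uninjured mice (1.66 to 2.39, edgeR adjusted p = 0.000155). Treated and injured mice differed by 0.33 (95% interval 0.08 to 0.57), which did not pass (edgeR adjusted p = 0.0571). That difference passed in 4 of 27 alternatives, among them without treated mouse 3 (0.39, edgeR adjusted p = 0.0343) and after each library was corrected for GC content and length (0.45, 0.00540). On junction reads alone, 157 over all libraries, Icam1 kept the direction of both changes against uninjured mice without passing (0.73, edgeR adjusted p = 0.341, and 0.85, 0.192). In that fit 0.552% and 2.53% of all genes tested were called in these comparisons.

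The endothelial marker sum in TPM was also higher with injury, on a scale where the all-gene median log2 fold change was 0.17, so Icam1 was set against it. The ratio of Icam1 TPM to the summed TPM of 15 endothelial markers was 0.00708 to 0.00853 in uninjured, 0.0117 to 0.0120 in injured and 0.0127 to 0.0147 in treated mice. These are 3 separate ranges in the same order as the CPM values. Of the 15 markers, 1 was called higher and 2 lower in injured than in uninjured mice, where 23.0% of all genes were called. Their median log2 fold change in normalised CPM was -0.10. Microglia and other leukocytes also make Icam1, and the part of each cell type in its level was not tested.

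Icam2 (ENSMUSG00000001029, chr11:106377656-106388075, minus strand, 12 exons), the constitutive endothelial ligand of LFA1, had 2.22, 3.00, 2.95 and 2.89 normalised CPM in uninjured mice. Injured mice had 2.80, 4.23, 3.01 and 3.55, and treated mice 3.86, 2.70, 2.57 and 3.45. The groups overlapped throughout. Log2 fold changes were 0.30 (95% interval -0.08 to 0.68, edgeR adjusted p = 0.222) with injury, 0.18 (-0.21 to 0.58, 0.515) in treated against uninjured and -0.11 (-0.49 to 0.26, 0.686) in treated against injured mice. On log2(TPM + 0.5) the difference with injury was 0.41 (limma adjusted p = 0.0343), on a scale where the median of all genes was 0.17 and 35.2% of them were called. It passed in 2 of 27 alternatives, both on TPM. Per length, Icam1 stood at 0.516 to 0.630 of Icam2 in uninjured, 0.655 to 0.864 in injured and 0.907 to 1.10 in treated mice. The 3 ranges were apart, and in treated mice the ratio averaged 1.02 ± 0.0967 (SD, n = 4).

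**Figure D4:**
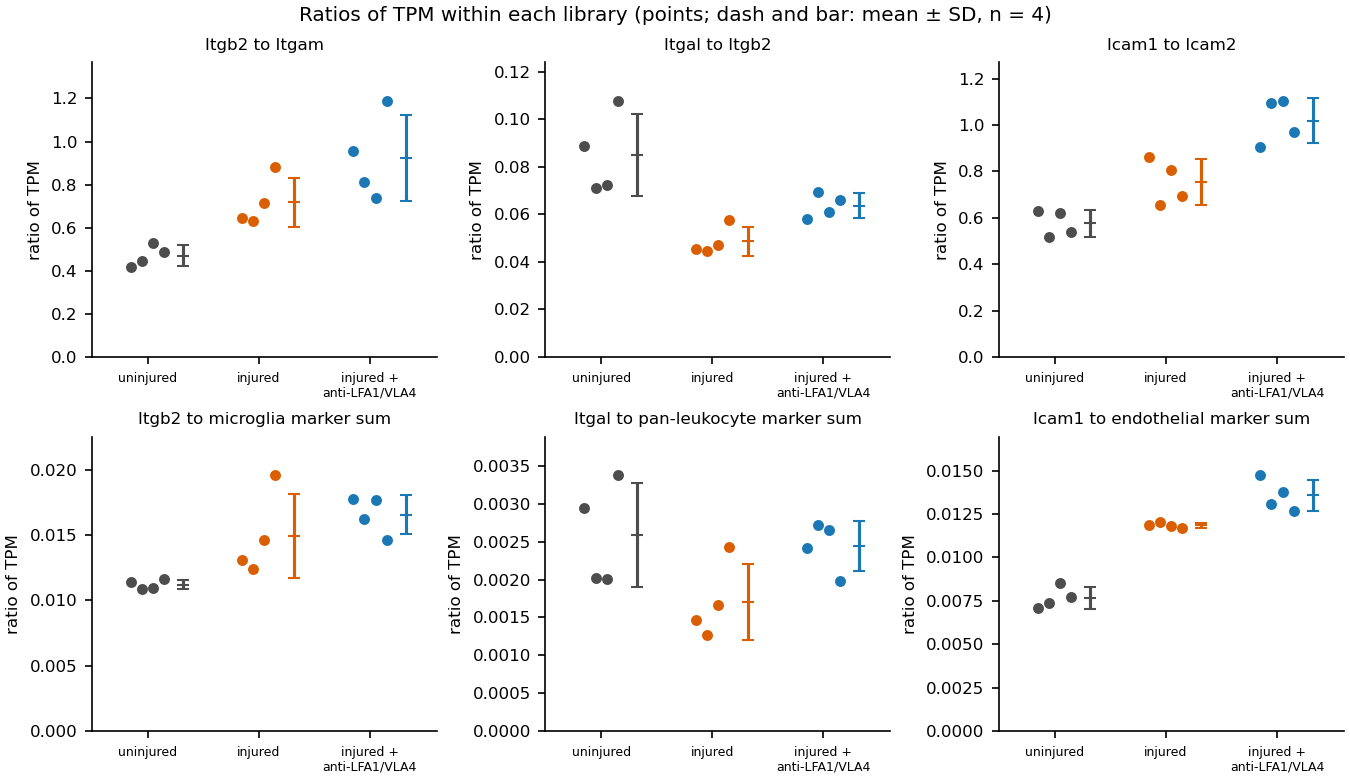
Ratios of deposited TPM within each library (y axis), 1 point per mouse, with mean and SD of each group (n = 4), for pairs of members and for members over the summed TPM of cell type markers. Icam1 to Icam2 and Icam1 to the endothelial sum form 3 separate ranges with treated mice highest, while Itgal to the pan-leukocyte sum overlaps among groups.

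Vcam1 (ENSMUSG00000027962, chr3:116109949-116129688, minus strand, 13 exons), the ligand of VLA4, had 35.5, 35.7, 34.2 and 32.4 normalised CPM in uninjured mice, 33.3, 31.9, 31.1 and 28.2 in injured mice and 36.7, 42.3, 39.2 and 36.4 in treated mice. In normalised CPM all treated mice were above all mice of the other groups, which overlapped. In TPM treated mouse 4 (16.2) lay within the ranges of both other groups. Treated mouse 1 (16.784) lay within the injured range, which reached 17.3, and barely above the highest uninjured mouse (16.780). Treated exceeded injured mice by 0.31 on the log2 scale (SE 0.07, edgeR adjusted p = 0.00947), a fold of 1.24 (95% interval 1.11 to 1.39). Treated against uninjured mice gave 0.17 (SE 0.07, edgeR adjusted p = 0.164), and injured against uninjured mice -0.15 (95% interval -0.30 to 0.01, edgeR adjusted p = 0.151). After the GC and length correction, chosen after seeing the data, treated against uninjured mice gave 0.25 (edgeR adjusted p = 0.0259). That fit called 18.5% of all genes in that comparison, beside 9.53% in the main test. The call in treated against injured mice was kept without any 1 mouse (edgeR adjusted p between 0.00805 and 0.0348). It was not kept after the GC and length correction (0.04, edgeR adjusted p = 0.769) or on log2(TPM + 0.5) (0.16, limma adjusted p = 0.192). Set against the astrocyte marker sum, a cell type known to make Vcam1, its TPM ratio was 0.00788 to 0.00859, 0.00620 to 0.00726 and 0.00795 to 0.00934 in uninjured, injured and treated mice. Against the endothelial sum it was 0.0470 to 0.0530, 0.0395 to 0.0482 and 0.0407 to 0.0561, overlapping among groups. The astrocyte sum itself was 1862 to 2045 TPM in uninjured and 2287 to 2550 in injured mice. Of its 8 markers 2 were called higher with injury, where 11.9% of all genes were. The median log2 fold change of these markers in normalised CPM was -0.005.

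Selectin reads were at or near the detection limit. Sele (ENSMUSG00000026582, chr1:164048234-164057677, 14 exons), E-selectin, had 1 exon read in uninjured mouse 1 and 0 in the other uninjured mice, 1 read each in injured mice 1, 2 and 3, and 1 read each in treated mice 1 and 3. No fold is given, since each group is at or under a floor of 3 reads. No difference in Sele was detectable at this depth.

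Selp (ENSMUSG00000026580, chr1:164115264-164150026, 18 exons), P-selectin of endothelium and platelets, had 0 exon reads in all 4 uninjured mice and 1 read in injured mouse 4. Treated mice had 1, 4, 4 and 3 reads, 12 in all, so Selp was found in every treated mouse. Summed over groups and scaled to depth, the treated Selp reads were 4.52-fold a floor of 3 reads set for the uninjured group. That value pools reads over mice and carries no counting interval, so it is not a lower limit. Against the 1 read of the injured group the ratio was 13.9, with an exact 95% counting interval of 2.06 to 596 that covers counting error only. With no filter on low counts, both differences passed (edgeR adjusted p = 0.0256 and 0.0330), on these few reads. In that fit 6.37% and 13.6% of 20684 genes were called in these comparisons. Platelet markers summed to 5.38 to 10.1, 6.97 to 8.98 and 6.61 to 15.3 TPM in uninjured, injured and treated mice. Gp1ba, a defining platelet marker, was at 0 in every library, and Gp6 was at 0 in the uninjured and injured groups.

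Markers of other cell types moved with αLFA1/VLA4 beside these members. Against injured mice, 5 of 8 pan-leukocyte, 6 of 11 tested monocyte and macrophage, 5 of 6 tested neutrophil and 3 of 5 tested B and plasma cell markers were higher, and 0 of 3 tested T and NK markers. Over all genes, 10.9% were called higher in that comparison. Monocyte and macrophage markers summed to 98.3 to 106 TPM in uninjured, 194 to 221 in injured and 378 to 462 in treated mice. Neutrophil markers summed to 8.75 to 11.4, 16.2 to 19.0 and 48.4 to 67.8 TPM, with Ly6g, a defining neutrophil marker, at 0 in all groups. B and plasma cell markers summed to 26.3 to 27.7, 27.6 to 32.8 and 156 to 218 TPM. In the same comparison 7 of 8 fibroblast and 7 of 7 skeletal muscle markers were higher. The part of these cells in the levels of Itgal, Itgb2, Itgb1, Vcam1 and Selp was not tested.

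The wider adhesion machinery was read from 4 lists of 76 genes in all, with the 10 members left out. Of the other integrin chains, 17 of 21 were tested. In injured against uninjured mice 6 were higher and 2 lower, where 23.0% of all genes were called, with a median log2 fold change of 0.31 beside 0.03 for all genes. Itgax, another α chain that pairs with Itgb2, rose by 1.81 (SE 0.14, edgeR adjusted p = 9.01e-06), from 1.62 ± 0.235 to 5.69 ± 0.562 normalised CPM (each SD with n = 4), and Itgb5, a vitronectin-binding chain, by 0.56 (edgeR adjusted p = 0.000345). In treated against uninjured mice 3 were higher and 0 lower, where 6.30% and 3.22% of all genes were, again with Itgax (1.69) and Itgb5 (0.58) leading. In treated against injured mice 1 was higher and 2 lower of 17, beside 10.9% and 10.7% of all genes. The lower ones were the laminin-binding chains Itgb4 (-0.38, edgeR adjusted p = 0.00954) and Itga7 (-0.36, 0.0225).

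Genes tied to the switch of integrins to their binding state, whether or not they promote it, were all tested, 18 of 18. With injury 5 were higher and 3 lower, where 23.0% of all genes were called. Fermt3, the kindlin of blood cells, which binds integrin β tails, rose by 0.52 (SE 0.12, edgeR adjusted p = 0.0111), and Rap1a, a small GTPase that promotes integrin activation, fell by 0.41 (SE 0.08, edgeR adjusted p = 0.00487). Fermt3 was the 1 gene of the list called in treated against uninjured mice (0.58, edgeR adjusted p = 0.00797), and the adaptor Fyb gave 0.59 without passing (0.0765). Of all genes, 6.30% were called higher and 3.22% lower there. In treated against injured mice 3 were higher and 1 lower, where 10.9% and 10.7% of all genes were, led by Rap1b (0.59, edgeR adjusted p = 0.000856) and Rap1a (0.48, 0.00120). The list's medians were 0.13, 0.10 and -0.01 in the 3 comparisons.

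Among other adhesion ligands and junction genes, 21 of 23 were tested. Calls higher and lower were 4 and 1 with injury, 4 and 1 in treated against uninjured, and 3 and 2 in treated against injured mice, with medians of 0.04, 0.05 and 0.09. These counts of 21 stand beside all-gene shares of 11.9% called higher with injury, 6.30% higher and 3.22% lower in treated against uninjured, and 10.9% and 10.7% in treated against injured mice. Spp1, osteopontin, a matrix ligand of several integrins, went from 22.1 ± 1.59 normalised CPM in uninjured to 62.5 ± 5.12 in injured and 81.8 ± 5.39 in treated mice (SD, n = 4). It rose by 1.5 with injury (edgeR adjusted p = 3.35e-07) and by a further 0.39 in treated against injured mice (edgeR adjusted p = 0.00394). Emilin1, a matrix protein that VLA4 can bind, was higher by 0.88 in treated than in uninjured mice (edgeR adjusted p = 0.00308). Alcam, an adhesion molecule of the immunoglobulin family, fell by 0.44 with injury (edgeR adjusted p = 0.00868), and Icam5, the ICAM of forebrain neurons, was lower in treated than in injured mice (-0.36, edgeR adjusted p = 0.00728). Glycam1, a mucin-like adhesion ligand, was too low for the test, with 8, 34 and 38 reads in the uninjured, injured and treated groups.

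Of the selectin ligands and the enzymes that glycosylate them, 10 of 14 were tested. Selplg, the main leukocyte ligand of P-selectin, rose by 0.30 with injury (edgeR adjusted p = 0.0188), and Cd24a, another P-selectin ligand, fell by 0.30 (0.0345), the list's only calls in that comparison. Of all genes, 23.0% were called there. Treated against uninjured mice gave 2 higher and 0 lower, beside 6.30% and 3.22% of all genes. The 2 were Cd44, a hyaluronan receptor and selectin ligand (1.13, edgeR adjusted p = 0.000591), and the galactosyltransferase B4galt1 (0.51, 0.00395). Treated against injured mice gave 4 higher and 0 lower of 10, beside 10.9% and 10.7% of all genes, led by Cd24a (0.47, edgeR adjusted p = 0.00394) and Cd44 (0.79, 0.00397). Medians were 0.02, 0.16 and 0.23 in the 3 comparisons.

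The genes whose levels followed the members most closely over the 12 libraries differed between members. Likeness was measured as Pearson's r of log2 normalised CPM among 14031 genes, a description in which the points share groups and depth. Itgb2 was closest to Lgals3bp (r = 0.97), Gpnmb (0.96) and the complement gene C3 (0.95), and Icam1 to H2-D1 (0.99), C1qc (0.98) and H2-Aa (0.98), genes of antigen presentation and complement. Itgal was closest to Fkbp5 (0.91), Ldoc1 (0.87) and Fndc9 (0.86). Itga4 followed Cfap97, Appl1 and Clock (0.97 each), and Itgb1 followed Caprin1 (0.98), Gmps (0.98) and Fbxo28 (0.97). Vcam1 was closest to Sowahc (0.96), Senp8 (0.95) and Ints12 (0.95). Among the members themselves, Itgb2 and Icam1 were close (0.91), as were Itgb1 and Vcam1 (0.80) and Itga4 and Itgb1 (0.72). The chains of LFA1 were less alike (0.58), and Itgb2 and Itgam had r = -0.06.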

How the data were processed

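Bulk RNA of 12 brain samples was analysed from 12 deposited tables, 1 per mouse, each with the same 25749 genes. The labels name a stranded total RNA kit. Build GRCm38 and the tools Trimmomatic 0.39, FastQC 0.11.8 and CASAVA 1.8.2 appear in the submitters' processing notes, and which aligner and counter were used is not given in the sources used here. As the file headers show, the authors deposited the count of reads per gene over exons, introns and exon junctions, in total and unique, and TPM, which exon reads divided by exon length gave back within 0.1% in all 12 libraries.

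Total exon reads were tested with edgeR 4.0.16 in R 4.3.3 (quasi-likelihood test, filterByExpr, TMM, 1 model of 3 groups with 9 residual degrees of freedom, two-sided, Benjamini-Hochberg adjustment over 14771 genes, threshold 0.05). The procedure was tested on simulated data. Because the labels call the samples biological replicates from different mice, p-values measure the spread between mice. TPM served to compare genes with each other and to form ratios within a library. The alternatives, 27 per gene for most genes, used DESeq2 1.42.0, limma 3.58.1 on counts (voom), on log2(TPM + 0.5) or on log2(TPM + 0.1), other scalings and filters, other read classes, a replicate block and the omission of each mouse. Of these, junction reads, the removal of a GC and length trend (mgcv 1.9.3) and the joint omission of 2 libraries were chosen after seeing the data.

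All 10 members are named, also where untested. From each of the 4 adhesion lists the 2 tested genes of smallest p per comparison are named, and likeness names the 3 genes of highest r for 6 members. The members and lists were chosen with earlier results of these data known. Summed marker TPM was taken over 14 lists, of which those for T and NK cells (25.7 to 32.6, 24.9 to 31.6 and 23.4 to 31.2 TPM in uninjured, injured and treated mice), pericytes and smooth muscle (159 to 168, 156 to 177 and 156 to 167), astrocytes (1862 to 2045, 2287 to 2550 and 2043 to 2299), oligodendrocytes (3164 to 3406, 3220 to 3449 and 2993 to 3145) and neurons (5649 to 6180, 5349 to 6140 and 4940 to 5991) are given here and the rest with the results. No 2 libraries of a group agreed within sampling noise (chi-square per degree of freedom 3.03 to 50.8). Promoter sequences are RefSeq's, on GRCm38.p6. Gene coordinates are those of the deposited tables.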

Additional observations from a re-analysis of the deposited data

Results flagged for a closer look

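Among 29 sets of 4 mice checked for a sample far from its group, 5 held one. For continuous values chance alone flags about 1 group in 20. Icam1 in injured mouse 2 (4.67 normalised CPM) lay above the other injured mice, which were at 4.08 to 4.14. Icam2 in uninjured mouse 1 (2.22 normalised CPM) lay below the other uninjured mice, at 2.89 to 3.00. The selectins were flagged on single reads, where a lone 1 among 0s or a lone 0 among 1s is always flagged and that chance rate does not apply: Sele had 1 exon read in uninjured mouse 1 and 0 in the other 3, and 0 in injured mouse 4 beside 1 in each of the other 3, while Selp had 1 read in injured mouse 4 and 0 in the others.

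Intron reads were used in no comparison, and differences in them were not tested. Icam1 had 29 in uninjured, 35 in injured and 15 in treated mice, beside 160, 277 and 293 exon reads. Scaled to library exon reads as CPM, these intron reads were 0.468, 0.550 and 0.274. Itgb2 had 10, 29 and 12 intron reads (0.161, 0.455 and 0.219 CPM). On this scale Itgal, Itga4 and Itgb1 were higher in treated than in injured mice. Their intron reads in injured and treated mice were 4 and 5, 41 and 59, and 147 and 153. Itgb2, Itgam, Icam1, Icam2 and Vcam1 were lower, with 45 and 35 reads for Itgam, 17 and 12 for Icam2 and 32 and 25 for Vcam1. Sele had 4 intron reads in treated mice (1, 0, 1 and 2 by mouse) and 0 in all uninjured and injured mice.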

How the results depend on the processing

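The 2 members called higher with injury (Icam1 and Itgb2) and the 2 called higher in treated than in uninjured mice were kept under all alternatives but junction reads, which left 0 and 1. Both counts stayed at 2 without any 1 mouse. Junction reads called 0.552% of 11954 genes with injury, 2.53% in treated against uninjured and 4.24% in treated against injured mice. The main test called 23.0%, 9.53% and 21.6% of all genes in the same order. The 1 member called lower with injury (Itgb1) became 0 with library size alone, limma on log2(TPM + 0.5) or log2(TPM + 0.1), junction reads or a GC and length correction, and was 0 to 1 without each mouse in turn. The 4 called higher in treated than in injured mice became 2 with library size alone, 0 with either limma fit on TPM (4 with limma voom on counts), 1 with only the compared groups fitted, 0 with junction reads, and 1 to 5 without each mouse in turn. Library size alone moved the all-gene median log2 fold change with injury from 0.03 to 0.11, and log2(TPM + 0.5) moved it to 0.17, and that of treated against injured mice from 0.01 to -0.14.

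Replicate numbers were shared by the groups, and no pairing of mice by number was seen. Same-numbered mice deviated with r of -0.78 to 0.67, over 0.1 in 2 of 12 pairs, and differently numbered mice with -0.76 to 0.79. Of 12 libraries, 0 were closest to their own number. Since other pairs spread as widely, this check cannot exclude a pairing. With the replicate block, 0 members were lower with injury and 2 were higher in treated than in injured mice.

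Changes of sign concerned uncalled values only. With injury, Itgam became 0.029 with library size alone, 0.11 with either limma fit, 0.21 with unique reads and 0.0016 with a GC and length correction, and Vcam1 became 0.012 or 0.013 with the limma fits and 0.22 with that correction. In treated against uninjured mice, Itga4 ranged from -0.41 to 0.037 without each mouse in turn (above 0 without uninjured mouse 1) and became 0.047 with junction reads, 0.027 with that correction and 0.12 without the 2 libraries at the ends of the first component. Itgb1 became -0.0044 with DESeq2 size factors, -0.0042 with DESeq2's test, -0.023 with junction reads, and ranged from -0.025 to 0.051 without each mouse in turn (below 0 without uninjured or treated mouse 2 or 3). Itgam became 0.036 with library size alone, 0.017 with unique reads, 0.041 with that correction and 0.14 without both end libraries, and ranged from -0.12 to 0.11 without each mouse in turn (above 0 without uninjured mouse 1 or treated mouse 4), and Icam2 became -0.033 with that correction. In treated against injured mice, Itgam became -0.14 with either limma fit, -0.19 with unique reads and -0.028 with junction reads, and ranged from -0.044 (without treated mouse 3) to 0.16 without each mouse in turn. Icam2 became 0.45 with junction reads and ranged from -0.23 to 0.0068 (without injured mouse 2). The cause of these changes was not tested. Depth left Sele and Selp untested in the main fit and Itgal on 230 exon reads in all 12 libraries.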
